A study of Mus musculus with 8 samples.

Results

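The enzyme genes of threonine, serine and glycine metabolism described here were chosen by symbol for their pattern over 4 stages of a mouse cardiac differentiation. They number 9, all of them found among the 13540 genes of the deposited table: Tdh, Gcat, Gldc, Phgdh, Psat1, Psph, Shmt1, Shmt2 and Mthfd2. Embryonic stem (ES) cells of the 129/Ola strain gave the starting point (ESC, day 0), from which mesodermal cells (MES) were taken on day 4, cardiac precursors (CP) on day 5.3 and cardiomyocytes (CM) on day 10. The labels name no genetic change. Cells grew as floating aggregates, later reaggregated in VEGF, Activin A plus BMP4, before plating with VEGF, basic FGF and FGF10. Poly(A) RNA was sequenced from 8 libraries, 2 per stage, and the table holds a single RPKM value for each stage (reads scaled to a gene's length in kilobases and to 1000000 reads). The cultures were profiled whole and were not sorted into cell types, as far as the labels say. Because the genes were picked for how they behave over these stages, their values are a description and no test was made. With 1 value per stage there is no SD, no replicate check and no p-value.

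Serine is made from the glycolytic intermediate 3-phosphoglycerate by the enzymes encoded by Phgdh, Psat1 and Psph. The serine hydroxymethyltransferases, Shmt1 in the cytosol and Shmt2 in mitochondria, move a carbon from serine to tetrahydrofolate and leave glycine. The glycine cleavage system, whose decarboxylase is encoded by Gldc, takes a further carbon from glycine, and Mthfd2 oxidises the mitochondrial folate-bound carbon towards formate for purine and thymidylate synthesis. Mouse ES cells are known for a second source, threonine, which threonine dehydrogenase (Tdh) and glycine C-acetyltransferase (Gcat) turn into glycine and acetyl-CoA, and they depend on threonine in culture. The human TDH gene does not make a working enzyme.

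Stage markers stood where the labels place them for ESC, MES and CM. The summed level of Pou5f1, Nanog, Sox2 and Zfp42 was 0.420 RPKM in CM, against 1298 RPKM in ESC, that of T, Mesp1, Eomes and Mixl1 was highest in MES at 297 RPKM, and that of 5 contractile genes was highest in CM at 8029 RPKM. Of 4 precursor genes, Isl1 and Mef2c were highest in CP (49.9 and 74.6 RPKM), while Nkx2-5 and Tbx5 were higher still in CM. CP also held markers of other cell types: the summed level of 5 endothelial markers was 226.9 RPKM in CP, against 64.3 RPKM in MES, and that of 7 blood markers 276.8 RPKM, against 8.44 RPKM in MES. In CM, 5 fibroblast markers summed to 249.6 RPKM, against 80.3 RPKM in CP, and 4 smooth muscle markers summed to 273 (ESC), 6.66 (MES), 566 (CP) and 2429 RPKM (CM). Their sum was thus lower in MES than in ESC, like the enzyme genes, with Acta2 at 1.96 RPKM in MES, against 131 RPKM in ESC. Of 5 neural markers 3 were in the table, at a summed 112 (ESC), 19.1 (MES), 21.6 (CP) and 14.6 RPKM (CM), and of 6 endoderm markers 4, at 0.875 (ESC), 73.3 (MES), 17.7 (CP) and 4.56 RPKM (CM). Single genes made most of some of these sums. Kdr was at 63.2 and Cxcr4 at 56.9 RPKM in MES, Tubb3 at 97.2 RPKM in ESC and Pdgfra at 54.4 RPKM in CP. Kdr was lower in CP (53.4 RPKM) than in MES, while the other endothelial markers were higher. Pdgfra was lower in CM (10.3 RPKM) than in CP, while the other fibroblast markers were higher. Such sums do not tell which cell types were present. Among the markers of other cell types, Hbb-bh1, Hba-x and Ttr were listed at 0 in ESC and Hba-x also in MES. The part of such cells in the values below was not tested, and in cultures measured whole, fewer cells of a type and less RNA per cell cannot be told apart. Low values moved in whole-read steps, from which depths of 75.3, 62.0, 64.8 and 88.5 M reads (1 M is 1000000) were read for the 4 stages in turn. For each of the 9 genes, the smallest whole reads that fit its values were taken as its read counts at the 4 stages.

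All 9 genes were highest in ESC, and 7 of them were lower at every successive stage by the values as deposited, Phgdh among them by a narrow margin between CP and MES. The exceptions were Psph, which was lowest in CM but higher in CP than in MES, and Shmt2, which was lowest in CP and higher in CM. Over all 13540 genes, 30.5% stood higher in ESC than at each later stage and 16.5% were lower at every successive stage. All 9 spanned at least 2-fold between their highest and lowest stage, which 63.2% of all genes did. The summed RPKM of the 9 genes was 827 (ESC), 269 (MES), 152 (CP) and 112 (CM). Their median percentile among the RPKM values of all genes of a stage was 93.4 (ESC), 78.8 (MES), 63.5 (CP) and 45.0 (CM). In ESC the 9 genes lay between percentiles 61.1 (Phgdh) and 99.2 (Psat1). In CM they lay between percentile 1.88 (Tdh) and percentile 96.1 (Shmt2). The range was already wide in MES (12.8 to 95.9) and in CP (4.29 to 93.5), with Tdh the lowest at both stages.

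**Figure D1:**
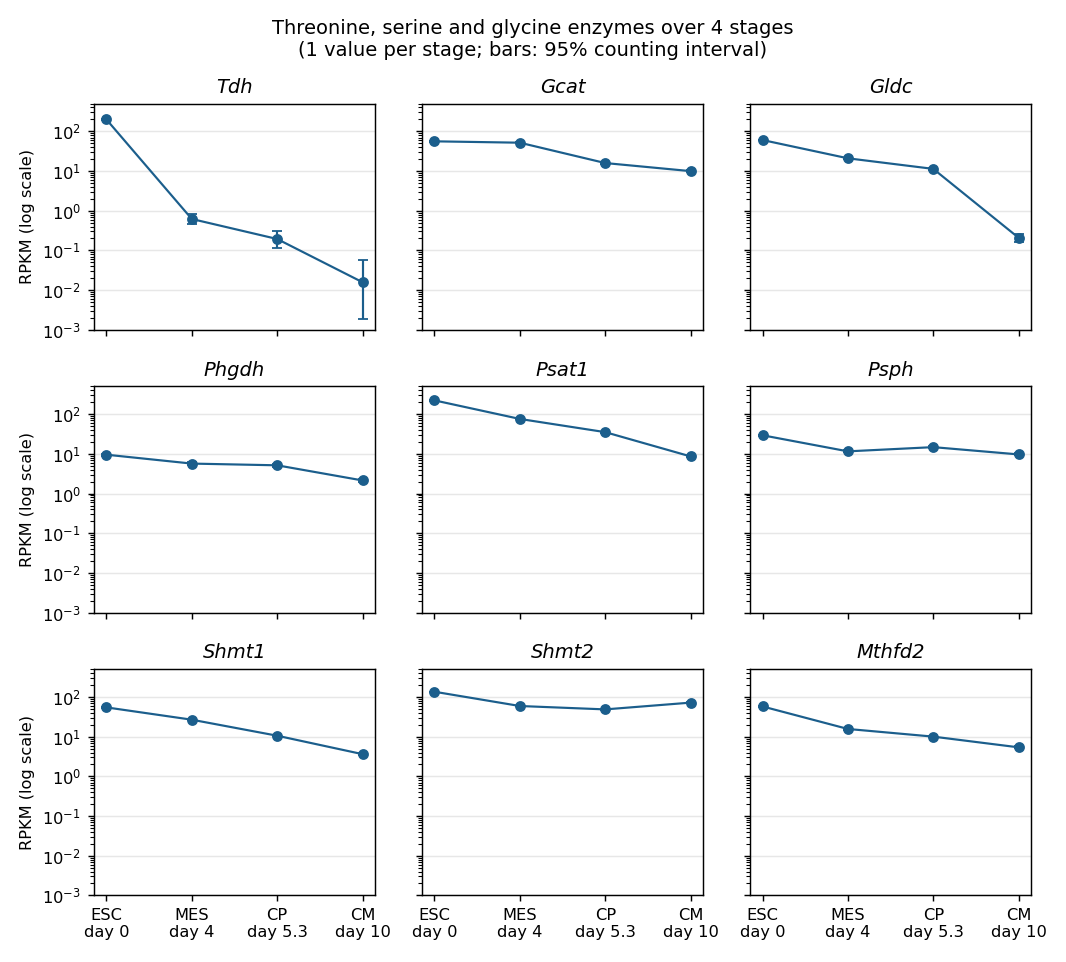
RPKM on a log axis against stage for each of the 9 genes, 1 value per stage, with bars for the 95% interval of counting error, which is smaller than the point for most values. Every panel is highest in ESC; Tdh is low from MES on, Gldc in CM, and Shmt2 stays between 48.8 and 136 RPKM.

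Counts of genes at least 2-fold apart use the difference in log2(RPKM + 1), a scale that understates differences of genes with low values. In MES, 7 of the 9 were at least 2-fold lower than in ESC, where 11.2% of all genes were, and the other two, Gcat and Phgdh, differed by -0.11 and -0.66. In CP, 3 were at least 2-fold lower than in MES (Gcat, Psat1 and Shmt1), against 3.91% of all genes. In CM, 3 were at least 2-fold lower than in CP (Gldc, Psat1 and Shmt1), against 12.8% of all genes. With a pseudocount of 0.1 in place of 1, that count was 5, while the count over all 13540 genes went from 1729 to 2686. By RPKM itself Tdh was 12.3-fold lower in CM than in CP (2.94 to 109) and Phgdh 2.41-fold lower (2.15 to 2.70). Between CM and ESC, 8 were at least 2-fold lower in CM, where 23.4% of all genes were, and Shmt2 was the remaining one at -0.90. In none of these 4 comparisons was any of the 9 at least 2-fold higher, while 11.1%, 8.91%, 11.3% and 22.2% of all genes were. The median difference of the 9 was -1.28 for MES minus ESC, -0.59 for CP minus MES, -0.79 for CM minus CP and -3.20 for CM minus ESC. The medians of all genes for the same 4 differences were 0.05, -0.03, -0.15 and -0.03. The last comparison shares its ESC value with the first, so their counts are not separate evidence. Since the genes were chosen on these very contrasts, nothing is read from the excess over the background shares.

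**Figure D2:**
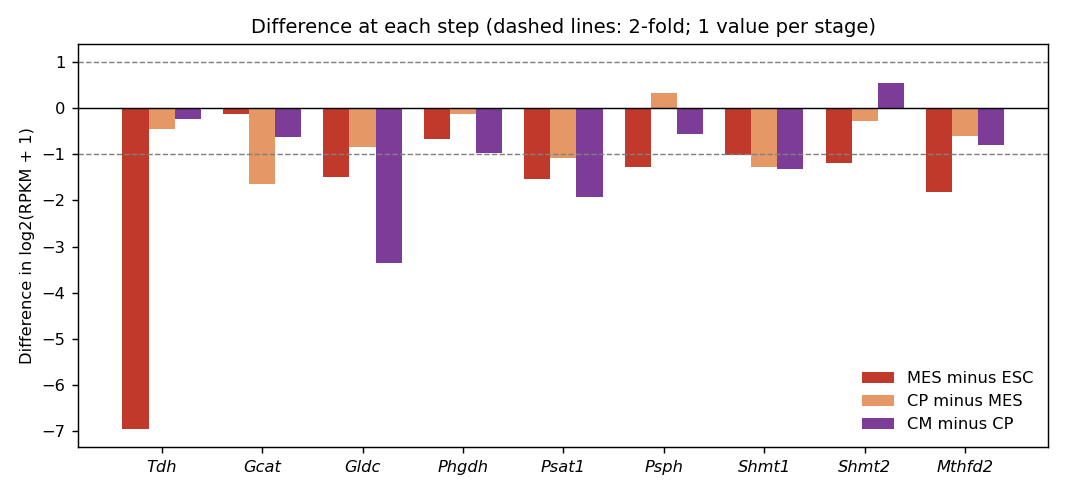
Difference in log2(RPKM + 1) at each of the 3 steps for the 9 genes, with dashed lines at 2-fold. On this scale, which understates steps between low values, Tdh has its largest difference at the first step and Gldc at the last, and the bars above 0 belong to Psph (CP minus MES, 0.33) and Shmt2 (CM minus CP, 0.56).

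The threonine pair separated at the first step. Tdh stood at 199.7 (ESC), 0.619 (MES), 0.194 (CP) and 0.0158 RPKM (CM), counted from 21560 reads (ESC), 55 (MES), 18 (CP) and 2 (CM). The MES level was 0.310% of the ESC level (95% counting interval 0.234% to 0.404%), which is 322-fold lower (248 to 428). CP was a further 3.19-fold lower than MES (1.85 to 5.78), on 18 and 55 reads. The CM level rests on 2 reads and was 0.00789% of the ESC level, with a counting interval of 0.000956% to 0.0285%. Gcat, which acts directly after Tdh in the pathway, stood at 56.2 (ESC), 51.8 (MES), 15.9 (CP) and 9.96 RPKM (CM). It was at 92.3% of its ESC level in MES (88.8% to 95.9%), when Tdh was already below 1 RPKM. Its largest step came next, with CP at 30.7% of MES (28.9% to 32.6%). Per kilobase, Gcat was at 0.281 times the level of Tdh in ESC and at 83.7 times in MES. The ratio was 82.1 in CP and 632 in CM, the last resting on the 2 Tdh reads. Of the 32-base words of the Tdh transcript, 24.0% also occur in transcripts of 3 other annotated genes, and of those of Gcat 47.1% do, in a second annotated gene of the same name, so reads of either may have been dropped or split in the authors' counting.

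Promoter sequences were taken from RefSeq (GRCm38.p6), which matched 8 of the 9 genes, with 2 starts for Psat1; Tdh was not matched. Each window runs from 250 bases before to 50 bases after a transcription start, and both strands were searched. Of the 4 motifs chosen for factors that are known to act on amino acid enzymes or in ES cells, 3 had no match in the 9 windows: the CEBP-ATF element bound by ATF4 (TGATGNAAN, in 3.95% of all 32851 windows), its core TTGCATCA (0.895%), and the octamer ATGCAAAT of OCT4 (1.74%). The core is a case of the element read on the other strand, so its absence is not a separate result. With 9 windows and shares this low, nothing is read from the absences. The E-box CACGTG, a site of MYC and related factors found in 7.15% of all windows, occurred once, 3 bases into the transcribed part of Gcat. It is shown in capitals because it was the only match of those 4 motifs, on the plus strand at chr15:79030868-79030887.
Gcat: gcccacgtCACGTGacgggg

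Serine synthesis genes were lower at later stages to different degrees, and Psat1 differed the most. Psat1, the phosphoserine aminotransferase, stood at 223 (ESC), 76.0 (MES), 35.3 (CP) and 8.63 RPKM (CM), the highest level of the 9 genes in ESC and in MES. MES was at 34.0% of ESC (33.3% to 34.8%), CP at 46.5% of MES (44.9% to 48.1%) and CM at 24.4% of CP (23.1% to 25.9%), so it was lower by more than 2-fold at each of the 3 steps, though not for CP minus MES after quantile normalization (-0.96). CM was at 3.86% of ESC, or 25.9-fold lower (24.6 to 27.2). Phgdh, the dehydrogenase of the first step, stood at 9.54 (ESC), 5.69 (MES), 5.15 (CP) and 2.14 RPKM (CM). Its counting intervals in MES (5.32 to 6.08 RPKM) and CP (4.81 to 5.52 RPKM) overlap, and the ratio puts CP at 90.5% of MES (82.2% to 99.6%), just below equal levels in counting error alone. Psph, the phosphatase of the last step, stood at 29.4 (ESC), 11.6 (MES), 14.8 (CP) and 9.69 RPKM (CM). Its CP level was 128% of that in MES (118% to 138%), and CM was at 65.5% of CP (60.7% to 70.6%).

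The lead of Psat1 over the other genes of this short pathway was smaller at each later stage. Psat1 was 23.4 times as high as Phgdh per kilobase in ESC, 13.3 times in MES, 6.85 times in CP and 4.03 times in CM. It was 7.58 times as high as Psph per kilobase in ESC, 6.56 times in MES, 2.39 times in CP and 0.890 times in CM. The level of Phgdh is uncertain. Of the 32-base words of its longest coding transcript, 73.5% also occur in annotated transcripts of 26 other genes, and reads of such copies may have been dropped or split in the authors' counting. Of the Psph transcript, 24.7% of the words are shared with Cct6a, which overlaps it on the opposite strand, and the library protocol names no step that marks strand.

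The cytosolic and the mitochondrial serine hydroxymethyltransferase diverged. Shmt1 stood at 54.8 (ESC), 26.8 (MES), 10.6 (CP) and 3.63 RPKM (CM) and was about evenly lower at each step on the log2 scale (differences of -1.004, -1.26 and -1.32). Its MES level, 49.0% of that in ESC (47.4% to 50.6%), lies right at the 2-fold line. Shmt2 stood at 136 (ESC), 59.4 (MES), 48.8 (CP) and 72.3 RPKM (CM), and its CM level was 148% of that in CP (144% to 153%). CM remained at 53.2% of ESC (52.0% to 54.4%). Shmt2 was 2.48 times as high as Shmt1 per kilobase in ESC (2.42 to 2.54) and 2.21 times in MES (2.13 to 2.29). It was 4.61 times as high in CP (4.38 to 4.84) and 19.9 times as high in CM (18.6 to 21.3). In cardiomyocytes Shmt2 was the highest of the 9 genes and Shmt1 was exceeded by 5 of the others. Little of either transcript is shared with other genes: 6.01% of the words of Shmt1 and 4.78% of those of Shmt2 occur in their transcripts, most of them in Smcr8 for Shmt1 and in Gm15544 for Shmt2. Shmt1 overlaps Smcr8 and Shmt2 overlaps Ndufa4l2 on the opposite strand, and without strand the reads of such partners cannot be told apart.

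The 150 bases before the start of each of these paralogs are shown because their expression parted and their promoters differ in base composition. Shmt1 lies on the minus strand at chr11:60811266-60811415 and Shmt2 on the minus strand at chr10:127522445-127522594. Capitals mark the GC box GGGCGG, the CCAAT box, and the letters GCATGCGC from the middle of the NRF-1 site, on either strand. These motifs were chosen after the sequences had been seen.
Shmt1: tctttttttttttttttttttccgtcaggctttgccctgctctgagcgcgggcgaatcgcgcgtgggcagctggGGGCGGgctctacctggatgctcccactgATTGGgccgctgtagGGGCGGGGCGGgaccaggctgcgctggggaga
Shmt2: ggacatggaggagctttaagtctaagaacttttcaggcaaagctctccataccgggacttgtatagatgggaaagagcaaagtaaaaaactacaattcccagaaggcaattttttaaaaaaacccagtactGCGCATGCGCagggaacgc

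The full Shmt1 window held 4 GC boxes and 1 CCAAT box and was 60.7% G and C. The Shmt2 window held neither and was 42.7% G and C, with the overlapping pair of NRF-1 matches beginning 19 and 17 bases before the start. The median share of G and C was 52.7% over all windows and 61.0% over those of genes with an RPKM value. GC boxes occurred in 35.7% of all windows and in 5 of the 9 windows described here, CCAAT boxes in 37.4% and in 6 of 9, and the NRF-1 letters in 2.71% and in Shmt2 alone. A TATA box (TATAAA), also added later, occurred in 13.6% of all windows and in 1 of the 9, that of Phgdh. NRF-1 is a transcription factor known for nuclear genes of mitochondrial proteins, and a match in a window is a description of its letters.

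Gldc had its largest difference late. It stood at 60.6 (ESC), 20.96 (MES), 11.3 (CP) and 0.208 RPKM (CM), from 17127 reads (ESC), 4876 (MES), 2759 (CP) and 69 (CM). MES was at 34.6% of ESC (33.5% to 35.7%) and CP at 54.1% of MES (51.6% to 56.7%). CM was at 1.83% of CP (1.42% to 2.32%), which is 54.6-fold lower (43.0 to 70.4). Gldc lay at percentile 6.21 of all genes in CM, against 63.5 in CP. No 32-base word of the Gldc transcript occurs in another gene's transcripts.

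The partners of Gldc in the glycine cleavage system did not show a step of this size. Amt, the aminomethyltransferase, stood at 65.4 (ESC), 20.3 (MES), 32.1 (CP) and 22.8 RPKM (CM), and Gcsh, the lipoyl carrier protein, at 112 (ESC), 69.9 (MES), 36.5 (CP) and 17.3 RPKM (CM). Dld, the dihydrolipoamide dehydrogenase that also serves the pyruvate dehydrogenase complex, stood at 31.1 (ESC), 40.5 (MES), 33.6 (CP) and 34.1 RPKM (CM). In CM, 2 of these 3 partners were at least 2-fold lower than in ESC and none higher (median -1.48), beside 23.4% lower and 22.2% higher over all genes. Gldc was 0.926 times as high as Amt per kilobase in ESC (0.9001 to 0.953) and 1.03 times in MES (0.975 to 1.09). It was 0.354 times as high in CP (0.335 to 0.373) and 0.00909 times in CM (0.00705 to 0.0115). The 150 bases before the Gldc start, on the minus strand at chr19:30175442-30175591, are shown because Gldc had the largest difference of the 9 at the last step. Capitals mark a GC box and a CCAAT box, both read on the opposite strand.
Gldc: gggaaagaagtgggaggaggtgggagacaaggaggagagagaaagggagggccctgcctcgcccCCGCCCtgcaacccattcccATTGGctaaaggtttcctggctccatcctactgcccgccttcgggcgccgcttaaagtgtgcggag

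Mthfd2, the mitochondrial methylenetetrahydrofolate dehydrogenase and cyclohydrolase of embryonic and proliferating cells, had its main difference at the first step. It stood at 57.9 (ESC), 15.7 (MES), 10.0 (CP) and 5.39 RPKM (CM), and the MES level was 27.1% of that in ESC (25.9% to 28.2%), or 3.70-fold lower (3.54 to 3.86). CP was at 64.1% of MES (60.3% to 68.1%) and CM at 53.7% of CP (49.9% to 57.7%). Its paralog Mthfd2l, which catalyses the same mitochondrial reactions and is known from adult tissues, was lowest in ESC, at 1.51 (ESC), 4.50 (MES), 5.19 (CP) and 3.42 RPKM (CM). Mthfd2 was thus 38.3 times as high as Mthfd2l per kilobase in ESC (33.8 to 43.5), 3.48 times in MES (3.19 to 3.81), 1.94 times in CP (1.78 to 2.11) and 1.58 times in CM (1.44 to 1.74). Mthfd1l, the mitochondrial enzyme that releases formate in the next step, kept much of its level, at 35.5 (ESC), 29.2 (MES), 18.2 (CP) and 27.6 RPKM (CM). Mthfd2 was 1.63 times as high as Mthfd1l in ESC (1.59 to 1.67) and 0.196 times as high in CM (0.185 to 0.207).

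**Figure D3:**
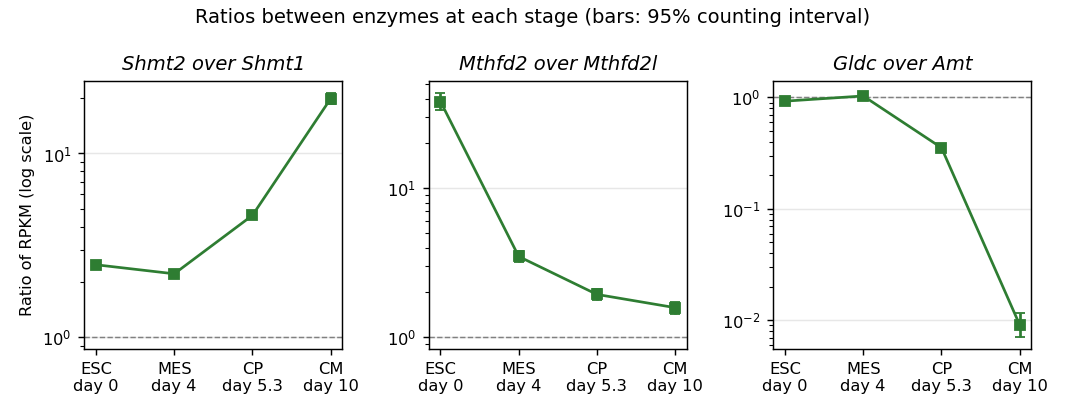
Ratio of RPKM between 2 enzymes at each stage on a log axis, with bars for the 95% interval of counting error and a dashed line at equal levels. Shmt2 over Shmt1 reaches 19.9 in CM, Mthfd2 over Mthfd2l goes down to 1.58 in CM, and Gldc over Amt is near 1 in ESC and MES and 0.00909 in CM.

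The wider pathway was described by 9 lists holding 152 genes, of which 136 were in the table. Their counts of genes at least 2-fold apart stand beside shares over all genes of 23.4% lower and 22.2% higher for CM minus ESC, and of 11.2% lower and 11.1% higher for MES minus ESC. Of 21 folate enzymes and carriers, 8 were at least 2-fold lower and 2 higher in CM than in ESC (median -0.56), and 2 were lower and 2 higher in MES than in ESC (median -0.26), the MES counts being near the shares over all genes. Folr1, a folate receptor, stood at 30.1 (ESC), 0.0422 (MES), 0.0538 (CP) and 0.0787 RPKM (CM). Mthfd1, the cytosolic trifunctional folate enzyme, stood at 107 (ESC), 63.9 (MES), 20.3 (CP) and 9.28 RPKM (CM), and Tyms, thymidylate synthase, at 10.7 (ESC), 12.8 (MES), 8.38 (CP) and 0.434 RPKM (CM). Aldh1l2, a mitochondrial folate dehydrogenase, was highest in CM, at 0.801 (ESC), 0.206 (MES), 0.418 (CP) and 6.51 RPKM (CM). Mtr, methionine synthase, was among those that varied least, between 9.28 and 13.3 RPKM.

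Of 12 genes of the methionine and S-adenosylmethionine cycle, 8 were at least 2-fold lower and 1 higher in CM than in ESC (median -1.15). Cth, cystathionine gamma-lyase, stood at 32.5 (ESC), 10.5 (MES), 1.80 (CP) and 0.254 RPKM (CM), and Cbs, the cystathionine synthase that joins serine to homocysteine, at 7.21 (ESC), 2.88 (MES), 0.272 (CP) and 0.470 RPKM (CM). Srm, spermidine synthase, stood at 155 (ESC), 73.6 (MES), 27.9 (CP) and 19.9 RPKM (CM). Mat2a, which makes S-adenosylmethionine, stood at 86.4 (ESC), 63.8 (MES), 39.0 (CP) and 11.8 RPKM (CM), while its regulatory partner Mat2b stayed between 12.2 and 15.5 RPKM. Ahcyl1 was the member that was higher, with 25.9 RPKM in CM, against 12.2 RPKM in ESC.

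Of 16 other enzymes around serine, glycine and threonine, a list that also holds enzymes of ketone body metabolism, 7 were at least 2-fold higher and 2 lower in CM than in ESC (median 0.35). The lower ones were Pipox, an oxidase that makes glycine from sarcosine, at 13.3 (ESC), 0.608 (MES), 1.32 (CP) and 0.338 RPKM (CM), and Bdh1, a ketone body dehydrogenase, at 7.45 (ESC), 2.73 (MES), 0.297 (CP) and 1.77 RPKM (CM). Sdsl, a serine dehydratase-like gene, stood at 0.186 (ESC), 1.66 (MES), 5.17 (CP) and 3.83 RPKM (CM), and Acat1, the mitochondrial acetoacetyl-CoA thiolase, at 6.12 (ESC), 7.90 (MES), 9.32 (CP) and 48.6 RPKM (CM). Gss and Sptlc2 varied least, between 3.02 and 4.68 RPKM and between 16.5 and 27.0 RPKM.

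Of 17 carriers of these amino acids, 7 were lower and 3 higher in CM than in ESC (median -0.21). The plasma membrane carriers Slc1a4 and Slc1a5 stood at 19.0 (ESC), 12.1 (MES), 5.99 (CP) and 2.31 RPKM (CM) and at 24.0 (ESC), 11.3 (MES), 3.77 (CP) and 3.98 RPKM (CM), and Slc7a5, which takes up large neutral amino acids, at 98.4 (ESC), 34.8 (MES), 21.5 (CP) and 13.3 RPKM (CM). Sfxn3, a sideroflexin of the mitochondrial serine carrier family, was highest in CM, at 3.30 (ESC), 1.89 (MES), 7.48 (CP) and 16.5 RPKM (CM). Slc36a1 and Slc38a1 varied least, between 3.55 and 4.52 RPKM and between 22.1 and 36.9 RPKM. Of 13 genes of purine synthesis, which uses glycine and folate-bound carbon, 9 were lower and 2 higher in CM than in ESC (median -1.80). Gart, the trifunctional purine enzyme, stood at 164 (ESC), 63.4 (MES), 37.3 (CP) and 15.9 RPKM (CM), and Pfas at 44.9 (ESC), 34.6 (MES), 19.2 (CP) and 7.29 RPKM (CM). Impdh1, of the guanine branch, stayed between 21.5 and 35.6 RPKM.

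Several of the 9 enzyme genes are known targets of ATF4, the transcription factor of the amino acid response. Of 22 genes of that response, 14 were lower by 2-fold or more and 1 was higher in MES relative to ESC (median -1.17). Atf4 itself stood at 193 (ESC), 92.0 (MES), 84.3 (CP) and 109 RPKM (CM). Chac1 stood at 22.5 (ESC), 0.739 (MES), 2.32 (CP) and 1.57 RPKM (CM) and Trib3 at 24.9 (ESC), 1.53 (MES), 3.38 (CP) and 5.08 RPKM (CM). Atf3, a stress-induced factor, was lowest in MES and highest in CM, at 3.12 (ESC), 0.496 (MES), 4.50 (CP) and 17.5 RPKM (CM). In CM, relative to CP, 7 of the 22 were higher by 2-fold or more and 3 were lower (median 0.34), beside 11.3% higher and 12.8% lower over all genes. The 9 enzyme genes had 0 higher and 3 lower, and the difference between the lists was not tested. Vldlr was the member that was higher in MES, at 1.69 (ESC), 14.6 (MES), 6.29 (CP) and 53.8 RPKM (CM), and Atf5 and Cebpg varied least.

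Regulators that are linked to serine synthesis genes numbered 11. Of these, 2 were lower and 1 higher in MES than in ESC (median -0.05), near the shares over all genes, and 5 were lower and 1 higher in CM than in ESC (median -0.82). Mycn stood at 125 (ESC), 72.7 (MES), 23.0 (CP) and 10.8 RPKM (CM) and Myc at 31.995 (ESC), 30.9 (MES), 7.59 (CP) and 4.23 RPKM (CM). Mycl1 was highest in MES, at 5.10 (ESC), 13.9 (MES), 2.93 (CP) and 0.380 RPKM (CM), and Trp53 stood at 85.1 (ESC), 42.7 (MES), 22.4 (CP) and 10.7 RPKM (CM). Nfe2l2 and Ehmt2 varied least, between 14.9 and 18.0 RPKM and between 40.5 and 51.6 RPKM.

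Genes of the cell cycle and DNA replication give a measure of proliferation beside these values. Of 22, 1 was lower by 2-fold or more in MES relative to ESC (median -0.07), beside 11.2% of all genes. In CP, 4 were lower than in MES (median -0.78), beside 3.91% of all genes. All 22 were lower in CM than in CP (median -2.05), beside 12.8% of all genes. Mcm5 and Mcm6, of the replicative helicase, stood at 251 (ESC), 212 (MES), 99.6 (CP) and 8.10 RPKM (CM) and at 129 (ESC), 125 (MES), 70.1 (CP) and 8.08 RPKM (CM). Rrm2, a subunit of ribonucleotide reductase, stood at 65.0 (ESC), 79.8 (MES), 41.4 (CP) and 4.49 RPKM (CM). Ccne1, cyclin E1, was the gene lower in MES, with 38.2 RPKM in MES, against 99.1 RPKM in ESC. The median of the 9 enzyme genes was -1.28 at the first step (-0.07 for the cell cycle list), -0.59 at the middle step (-0.78) and -0.79 at the last (-2.05). The 9 genes differed in this. Tdh, Psph, Shmt2 and Mthfd2 had their most negative difference at the first step and Gcat at the middle one. Gldc, Phgdh, Psat1 and Shmt1 had theirs at the last step, as the cell cycle list did. The part of proliferation in the enzymes' values was not tested.

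**Figure D4:**
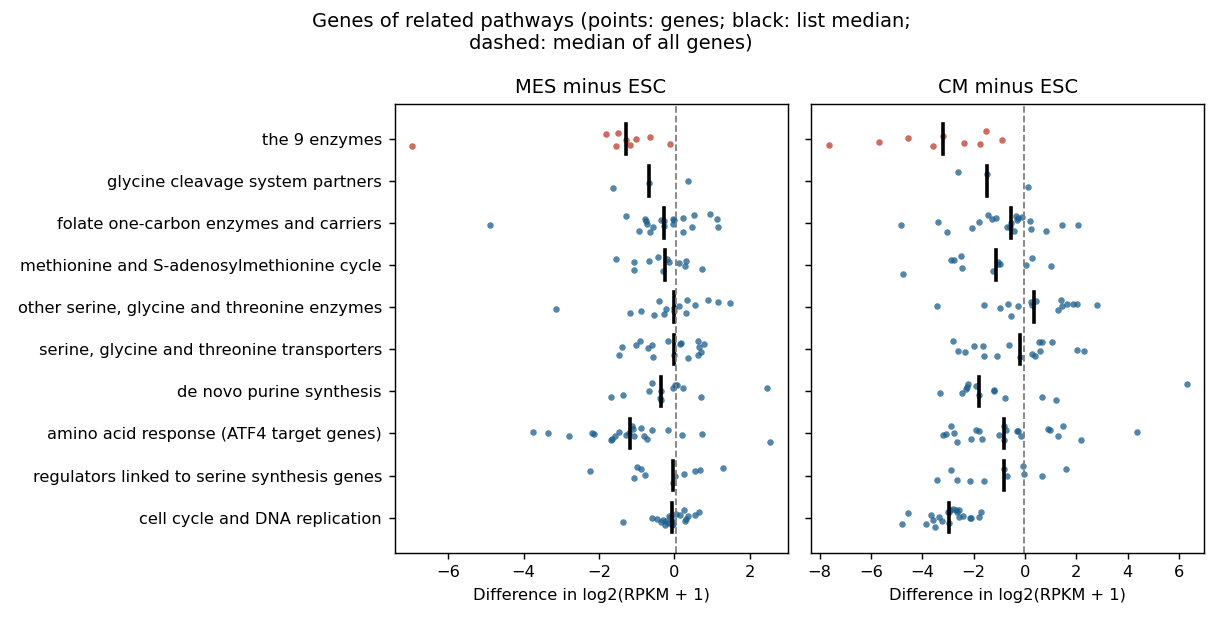
Difference in log2(RPKM + 1) for MES minus ESC and CM minus ESC, 1 point per gene, for the 9 enzymes and the 9 related lists, with list medians in black and the median of all genes dashed. The amino acid response list has a median of -1.17 for MES minus ESC, and the cell cycle list lies near 0 there and at -2.94 for CM minus ESC.

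Genes of like profile were sought among 7720 named genes with a range of at least 2-fold, by the root mean square distance between centred log2(RPKM + 1) values over 4 stages; with 4 points such likeness is common, and it says nothing of level. Nearest to Tdh were Rpl10l, Zfp42 and Dppa5a (distances 0.083, 0.086 and 0.29), all high in ESC and below 2 RPKM from MES on. Nearest to Gldc were Car2, Tdgf1 and Epcam (0.21, 0.25 and 0.31), and nearest to Psat1 were Ccne1, Gbx2 and Ddx21 (0.12, 0.16 and 0.25). Gcat was nearest to the cyclin D1 gene Ccnd1 (0.074), which stood at 85.2 (ESC), 78.1 (MES), 24.3 (CP) and 13.6 RPKM (CM), then to Ahsa1 and Grwd1. Shmt1 was nearest to Snhg3, Hsp90aa1 and Kcnk1 (0.097 to 0.11), and Mthfd2 to Tle4, Phc1 and SNORA73.1 (0.061 to 0.11). Phgdh was nearest to Cc2d1b, Fubp3 and SNORD81.2 (0.027 to 0.046), Psph to Gcnt2, Klk10 and H2-Bl (0.045 to 0.059), and Shmt2 to Hr, Fam129a and Ass1 (0.033 to 0.059), the last 6 being genes under 5 RPKM at every stage. Because 1 is added to each RPKM, genes with low values can lie near while their RPKM ratios differ widely. Ass1 stood at 1.53 (ESC) and 0.0909 RPKM (MES), where Shmt2 stood at 136 and 59.4 RPKM. Gbx2 stood at 22.7 (ESC) and 0.0107 RPKM (CM), where Psat1 stood at 223 and 8.63 RPKM. Among the 9 themselves, the closest pairs were Phgdh and Psph (0.31), Psat1 and Shmt1 (0.34), and Psph and Shmt2 (0.40).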

How the data were processed

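Poly(A) RNA libraries from 4 stages of mouse cardiac differentiation were run on a GAIIx sequencer according to the labels. The submitters' processing notes name Novoalign 2.07.00 and build mm9. Not given in the sources used here are the read counter, the annotation release and whether a stage's value pools its 2 libraries. The authors deposited RPKM, named so in the table's own header, in 1 column per stage, each gene reaching at least 1 RPKM at some stage. The tests planned for separate libraries were not possible.

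The members and lists were chosen with earlier results of these data known. Differences are on the log2(RPKM + 1) scale, computed with Python 3.11.15, pandas 2.3.3 and NumPy 2.4.6. Stage depths were set so that low values fall on whole reads: of 2238 genes below 3 RPKM at every stage, 98.8% did at a relative tolerance of 1e-06, against 4.11% with wrong depth ratios. The absolute depth came from GENCODE M21 exon lengths, matched within 0.1% by 26.8% of 2057 genes. For each of the 9 genes the smallest reads that fit then gave a whole gene length (1433 bases for Tdh), with a departure of at most 2.0e-04 bases. A whole multiple of these reads would also give a whole length. Intervals are exact (Poisson for a level, binomial for a ratio; SciPy 1.17.1), at 95%, and cover counting error only. The depth ratios with the whole reads, and the counting of 2-fold differences, were tested on simulated data. Absolute depth, gene lengths and intervals were not.

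Named genes are the 9 members; of each list, the 4 genes of largest and the 2 of smallest range among those reaching 3 RPKM; and for each member the 3 genes of nearest profile. Outside this rule, Atf4, Mthfd2l, Mthfd1l, Ahcy, Amd1, Impdh2 and Folr2, the GC box, CCAAT box, NRF-1 and TATA box motifs and the pairs for ratios were chosen after values or sequences were seen. A planned protein comparison was not made, and 1 gene that the rule names is not reported here.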

Additional observations from a re-analysis of the deposited data

How the results depend on the processing

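Results were recomputed with pseudocounts of 0.1 and 0.5, a minimum of 4-fold, only genes reaching 3 RPKM, each stage scaled to a sum of 1000000, quantile normalization and median of ratios scaling. Under the scaling to a sum, quantile normalization and median of ratios scaling, all 9 genes stayed highest in ESC. With the same scalings, 7 stayed lower at every successive stage. Pseudocounts, the minimum of 4-fold and the filter at 3 RPKM cannot change the order of a gene's values, so they do not test this. At a minimum of 4-fold, members lower numbered 1 for MES minus ESC, 0 for CP minus MES, 1 for CM minus CP and 6 for CM minus ESC. Of the 13540 genes, 470, 118, 320 and 1050 were that much lower in these comparisons in turn. At that minimum, listed genes lower in CM than in ESC numbered 1 for the glycine cleavage partners, 4 for folate and 5 for the methionine cycle. They numbered 1 for the other serine, glycine and threonine enzymes, 3 for carriers, 5 for purine synthesis and 6 for the amino acid response. With a pseudocount of 0.1, 5 members were lower in CM than in CP, as were 2686 of the 13540 genes. Lower in CM than in ESC were then 4 other serine, glycine and threonine enzymes, beside 3776 of all genes. Under the scaling to a sum they were also 4, beside 3583 of all genes. That scaling took the median of all genes for CM minus CP to -0.29, against -0.15 as deposited. Of the recomputed differences of single members, 184 stayed close to the reported value and 68 moved, 0 of them with a changed sign. Differences under the minimum of 4-fold and the filter at 3 RPKM are unchanged by design and count among the 184. Since a pseudocount cannot change a sign either, only the scalings test the signs. Shmt2 remained higher in CM than in CP (0.45 to 0.71) and Psph higher in CP than in MES (0.33 to 0.43). Tdh for MES minus ESC was -8.12 at a pseudocount of 0.1, against -6.95. Shmt1 was under 2-fold for MES minus ESC with quantile normalization (-0.94) and the scaling to a sum (-0.97). Psat1 was under 2-fold for CP minus MES with quantile normalization (-0.96), where 2 members and 652 of the 13540 genes were lower. By Pearson correlation, 5 of the 27 genes of nearest profile were again among the nearest 3. No paired analysis was possible because the columns carry no replicate number; libraries could not be left out in turn for the same reason. Depth limits the Tdh values most, with 2 reads in CM.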

Other observations

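The adenylosuccinate synthases, which act after the purine ring is made, were split between isozymes. Adssl1, the muscle isozyme, stood at 0.611 (ESC), 7.83 (MES), 27.9 (CP) and 125.7 RPKM (CM), while Adss, the form of most other tissues, stood at 67.4 (ESC), 52.8 (MES), 35.5 (CP) and 12.9 RPKM (CM). Adssl1 was the gene with the largest range among all 9 lists, at 6.30 on the log2(RPKM + 1) scale.

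Levels of some listed genes are uncertain for the same reason as that of Phgdh. Ahcy, the hydrolase of S-adenosylhomocysteine, was listed at 2.04 (ESC), 2.30 (MES), 0.836 (CP) and 0.286 RPKM (CM), and 79.3% of the 32-base words of its longest coding transcript occur in transcripts of other genes. The share was 92.1% for Amd1, 78.1% for Impdh2 and 60.4% for Folr2.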
